A study of Sus scrofa with 7 samples.

Results

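The nuclear-encoded genes of the mitochondrial respiratory chain were compared between the hypothalamus of piglets that had received antibiotics into the distal ileum and that of piglets that had received saline. The members were the tested rows of the authors' deposited gene table whose symbol named a subunit or an assembly factor of complexes I to V or cytochrome c and whose locus was not on the mitochondrial chromosome. They were 83 of 13352 tested features, namely 57 subunits, 25 assembly factors and ATP5S, which encodes coupling factor B of ATP synthase. The rows of NDUFA4L2 and COX8C matched the names but had not been tested by the authors, and the former stood at 0.0786 FPKM in control against 0.0187 in antibiotic. COX8C was listed at 0 in control and at 0.0412 FPKM in antibiotic.

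RNA-seq had been made from 4 control and 3 antibiotic hypothalami. All animals, Duroc x Landrace x Large White crosses sampled on postnatal day 45, carried a T-cannula, a tube fixed in the distal ileum. Both groups received 10 mL of saline through it, and the antibiotic group had 3 drugs dissolved in that volume, with daily doses per kg body weight of 150 mg for ampicillin, 4 mg for gentamicin and 30 mg for metronidazole. The authors' deposited table gives 1 FPKM value per gene and group (fragments per kilobase of transcript, scaled to the mapped fragments of the library), so no value per animal, no spread between animals and no depth per library was known. Every FPKM, log2, p and q below comes from that table, and a gene is said to have risen or fallen where the authors' q was under 0.05. The sources used here leave unstated how single libraries were weighted by that test. In bulk tissue, fewer cells of a type and less RNA per cell cannot be told apart.

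The respiratory chain passes electrons from NADH and succinate to oxygen and pumps protons across the inner mitochondrial membrane, and ATP synthase (complex V) uses the proton gradient to make ATP. Complex I takes electrons from NADH, complex II from succinate, complex III hands them to cytochrome c, and complex IV passes them to oxygen. Most subunits are encoded in the nucleus and imported, a few are encoded in mitochondrial DNA, and assembly factors insert cofactors and join subunits without staying in the finished enzyme. Neurons rely on this pathway for most of their ATP.

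The respiratory chain did not move in one direction. Of the 83 members 10 rose, 24 fell and 49 did not pass, so 34 (41.0%) were called against 41.1% of all tested features. The share that rose was 12.05% against 19.0% of all tested features, and the share that fell was 28.9% against 22.2%. With a 2-fold change also required, 3 members rose and 13 fell, where 7.37% of all tested features rose and 8.44% fell by that rule. At a q under 0.01, 28.3% of all tested features were called, and 7 members rose and 20 fell. The 49 members that did not pass had log2 values from -0.59 to 1.77, of which 29 were above 0. The median log2 of antibiotic over control was -0.020 over the members and -0.032 over all tested features. All 10 members that rose were subunits.

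**Figure D1:**
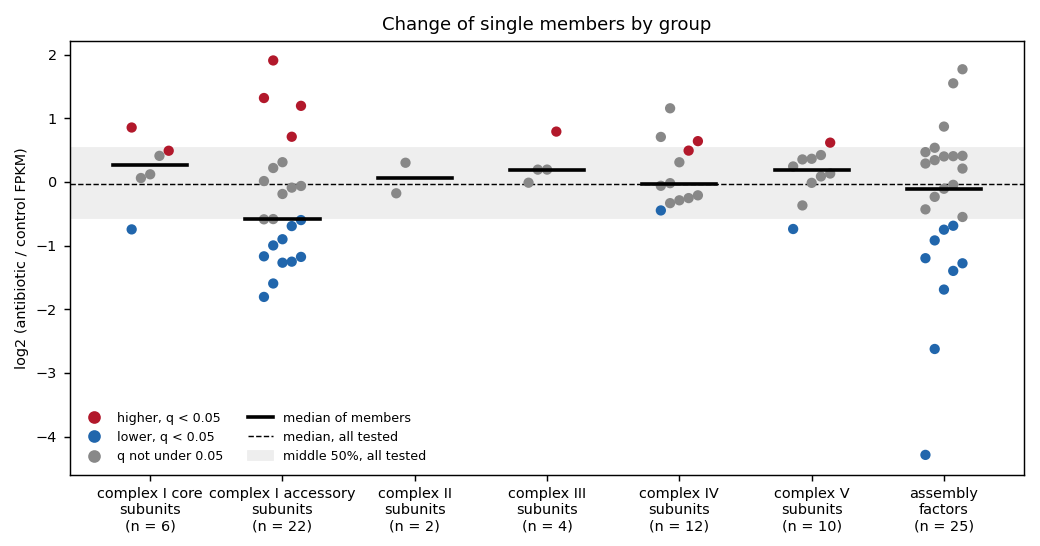
Each point is the log2 of antibiotic over control FPKM of 1 member, grouped by complex and class, with red for members that rose, blue for members that fell and grey for the rest. Black bars are medians of the members, and the dashed line and grey band are the median and the middle 50% of all tested features. Accessory subunits of complex I and assembly factors hold the members that lie farthest from 0, down to -4.29. The subunits of complexes II to V other than COX8H lie between -1 and 1. CYCS and ATP5S, which both fell, are not drawn.

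Complex I subunits held 17 of the 24 calls among subunits. Of 28 subunits 6 rose, 11 fell and 11 did not pass, so 60.7% were called against 41.1% of all tested features. Of the 29 subunits of complexes II to V and cytochrome c 7 (24.1%) were called, 4 upwards and 3 downwards. Outside these counts NDUFA2, NDUFA6 and NDUFA9, complex I subunits listed by an Ensembl ID alone, did not pass. Among such rows of other subunits only SDHD was called, and it fell. With such rows the median log2 of complex I, assembly factors included, was -0.11 instead of -0.19. The middle 50% of the log2 values ran from -0.92 to 0.33 in complex I subunits and from -0.21 to 0.36 in the other subunits, and from -0.57 to 0.54 over all tested features. The summed FPKM of complex I subunits was 4273.5 in control and 2893 in antibiotic, and that of the other subunits was 6604 and 6609.9. NDUFA12, NDUFB1 and NDUFB7, chosen after their values were seen, held most of this gap, since without them the complex I sum was 2598 in control and 2253 in antibiotic. These differences between groups of genes were not tested, because genes are not replicates. Of the 698 tested features with a mean of at least 100 FPKM 54.3% were called, 17.0% upwards and 37.2% downwards. At that level 5 of 11 complex I subunits fell and none rose, and of 19 other subunits 2 rose and 3 fell.

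The arm of complex I that oxidises NADH showed rises and falls side by side. Of its 7 subunits among the members 3 rose, 3 fell and 1 did not pass, so 85.7% were called against 41.1% of all tested features. NDUFA2 and NDUFA6, listed by an Ensembl ID alone, did not pass either (authors' q = 0.240 and 0.814). NDUFS6, a zinc-binding accessory subunit, went from 22.8 FPKM in control to 85.6 in antibiotic (3.75-fold, authors' q = 0.000336), the largest rise among the members that passed. NDUFV3, a small accessory subunit, rose from 6.25 to 15.6 FPKM (2.49-fold, authors' q = 0.000336). NDUFV1, the core subunit that holds the flavin and binds NADH, rose from 39.3 to 71.1 FPKM in the authors' table. Its core partner NDUFV2, an iron-sulfur subunit, moved the other way. NDUFV2 fell from 202 to 121 FPKM (log2 of -0.75, authors' q = 0.000625). NDUFS4, an accessory subunit whose loss causes Leigh syndrome in people, fell from 100.8 to 62.3 FPKM (authors' q = 0.00185). NDUFS1, the largest core subunit, stood at 30.5 FPKM in control against 33.1 in antibiotic (authors' q = 0.578).

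NDUFA12 and its assembly counterpart both fell. NDUFA12, an accessory subunit counted above with the arm that oxidises NADH, went from 755 FPKM in control to 249.8 in antibiotic (3.02-fold, authors' q = 0.000336). NDUFAF2, a paralogue that occupies the place of NDUFA12 during assembly, went from 53.6 to 8.70 FPKM (6.16-fold, authors' q = 0.000336). NDUFA12 was thus among the most abundant members in control and NDUFAF2 had the second largest fall. In the deposited table NDUFA12 lies at chromosome 5, 92639655 to 92664030, NDUFAF2 at chromosome 16, 42832715 to 42874957, and NDUFS6 at chromosome 16, 85609821 to 85615984. The build of these coordinates is not stated beside them, although susScr3, a pig build, is among those in the submitters' processing notes, and the table does not say where in the genes the fragments lay.

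The quinone-binding part of complex I had 1 rise and 1 fall among its 4 members, so 50% were called against 41.1% of all tested features. NDUFA9, listed by an Ensembl ID alone, stood at 43.1 FPKM in control against 47.3 in antibiotic (authors' q = 0.553). NDUFS7, the core subunit with the last iron-sulfur cluster before ubiquinone, rose from 56.0 to 78.7 FPKM (1.40-fold, authors' q = 0.0296). NDUFA5, an accessory subunit, fell from 31.9 to 14.1 FPKM (2.26-fold, authors' q = 0.000336). NDUFS3, a core subunit, went from 77.0 to 80.3 FPKM without passing (authors' q = 0.810), and its deposited locus holds another row of the table.

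The membrane arm held falls of several small accessory subunits. Of its 17 tested subunits 7 fell (41.2%, against 22.2% of all tested features) and 2 rose (11.8%, against 19.0%). The remaining 8 missed the threshold, and the median log2 was -0.58. NDUFB1 fell from 333 to 95.3 FPKM (3.50-fold) and NDUFB6 from 97.1 to 40.3 FPKM (2.41-fold), both with an authors' q of 0.000336. NDUFB3 fell from 82.7 to 34.7 FPKM (2.38-fold) and NDUFB7 from 588 to 295 (1.996-fold), with the same authors' q. These proteins line the far end of the membrane arm or its intermembrane face. NDUFC2 fell from 118 to 52.4 FPKM (authors' q = 0.00665) and NDUFC1 from 289.7 to 155 (authors' q = 0.000336). NDUFB5 fell from 74.5 to 49.2 FPKM (authors' q = 0.00371). The deposited locus of NDUFB7 spans only 642 bases, and that of NDUFB1 spans 1849 bases. A locus length here is the span between the deposited start and end, which is not a transcript length. The median locus length was 14643 bases for all members that fell and 6655.5 for those that rose. Over all tested features the medians were 33553 and 21461 bases. Whether short transcripts bear on the values was not tested.

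The members of the membrane arm that rose were NDUFA11, which stabilises the arm, and NDUFA10, which resembles a nucleoside kinase. NDUFA11 rose from 27.2 to 62.4 FPKM (2.29-fold, authors' q = 0.000336) and NDUFA10 from 59.8 to 97.8 (1.63-fold, authors' q = 0.000891). NDUFAB1, the mitochondrial acyl carrier protein, stood at 193 FPKM in control against 195 in antibiotic (authors' q = 0.955). NDUFA13 stood at 214 and 201 FPKM (authors' q = 0.688), and NDUFB8 at 114 and 109 (authors' q = 0.783). NDUFB9 went from 330.0 to 219.7 FPKM without passing (authors' q = 0.0565), and its deposited locus also holds TMEM65, TATDN1 and MTSS1.

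Split by function, the core subunits of complex I, which carry the redox groups, had 6 tested members with a median log2 of 0.26. Of these 2 rose (33.3%, against 19.0% of all tested features) and 1 fell (16.7%, against 22.2%). Of the 22 accessory subunits 4 rose (18.2%, against 19.0% of all tested features) and 10 fell (45.5%, against 22.2%), and the median log2 was -0.59. The summed FPKM of the core subunits was 519 in control and 536 in antibiotic, and that of the accessory subunits was 3754 and 2357. The split into core and accessory subunits is the textbook one and was added after the table had been read. Complex I also has subunits encoded on the mitochondrial chromosome, which are not members, and 5 of them had a row. Of these ND2 fell from 14056.5 to 5121 FPKM and ND3 from 209838 to 10646 (both with an authors' q of 0.000336), and ND5 also fell. MT-ND1 stood at 16914 FPKM in control against 9740 in antibiotic (authors' q = 0.0883), and NADH6 at 5212 and 1362 (authors' q = 0.375).

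**Figure D2:**
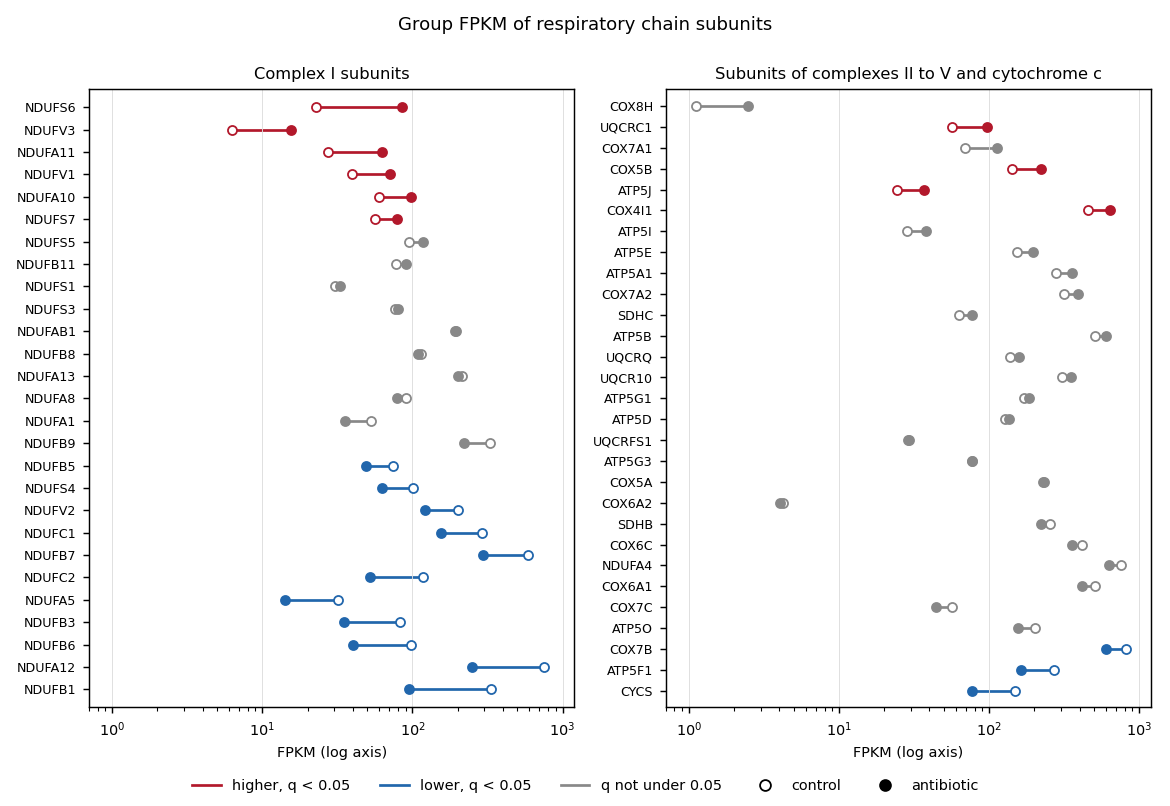
Open circles are control and filled circles antibiotic FPKM of each subunit on a log axis, with complex I (1 subunit not drawn) on the left and complexes II to V with cytochrome c on the right, sorted by log2. Red lines mark subunits that rose, blue lines those that fell and grey lines those that did not pass. Long lines are frequent on the left, where NDUFS6 goes from 22.8 to 85.6 FPKM and NDUFB1 from 333 to 95.3, and rare on the right, where CYCS from 149 to 77.4 is the longest of a subunit that passed.

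Both complex II subunits among the members did not pass, and 2 of its 3 assembly factors fell (66.7%, against 22.2% of all tested features). SDHB, the iron-sulfur subunit, stood at 252 FPKM in control against 223 in antibiotic (authors' q = 0.392), and SDHC, a membrane anchor, at 62.6 and 77.1 (authors' q = 0.132). SDHAF4, which helps SDHA with its bound flavin join SDHB, fell from 46.3 to 19.1 FPKM (2.42-fold, authors' q = 0.000336). SDHAF3, which acts on SDHB maturation, fell from 1.89 to 0.999 FPKM (authors' q = 0.0438), at a low level in both groups. SDHAF1, which brings iron-sulfur clusters to SDHB, stood at 16.3 and 21.6 FPKM (authors' q = 0.140). In rows that the deposited table lists by an Ensembl ID alone, and that the gene name table calls SDHD and SDHAF2, the anchor gene SDHD fell from 65.5 to 45.4 FPKM (authors' q = 0.00797). SDHAF2, which attaches the flavin to SDHA, rose there from 32.8 to 51.0 FPKM (authors' q = 0.0101). The other 6 tested rows of that kind, named COX8A, NDUFA2, NDUFA6, NDUFA9, UQCR11 and UQCRC2, did not pass. COX8A, the ubiquitous form of that complex IV subunit, stood at 221 FPKM in control against 248 in antibiotic.

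In complex III 1 of 4 subunits rose (25%, against 19.0% of all tested features), and cytochrome c fell. UQCRC1, a core protein of complex III, rose from 56.3 to 97.4 FPKM (1.73-fold, authors' q = 0.000336). UQCRFS1, the Rieske iron-sulfur protein, stood at 29.0 FPKM in control against 28.8 in antibiotic (authors' q = 0.958). The small subunits UQCR10 and UQCRQ went from 307 to 351 FPKM and from 138 to 157 FPKM, respectively, without passing (authors' q = 0.375 and 0.363). CYCS, which encodes cytochrome c, the mobile carrier that also triggers apoptosis when released, fell from 149 to 77.4 FPKM (1.93-fold, authors' q = 0.000336). Mammalian genomes hold processed copies of the cytochrome c gene, and whether reads were shared with them was not tested.

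Complex IV subunits were among the most abundant members, and most did not pass. Of 12 subunits COX4I1 and COX5B rose, COX7B fell and 9 did not pass, so 25% were called against 41.1% of all tested features. Together the 12 subunits summed to 3771 FPKM in control against 3652 in antibiotic. COX4I1, the main regulatory subunit, rose from 456 to 641 FPKM (1.41-fold, authors' q = 0.0117), and COX5B, a zinc-binding subunit, rose from 141 to 219.9 (1.56-fold, authors' q = 0.000891). COX7B fell from 817 to 599 FPKM (1.36-fold, authors' q = 0.0452), and it was the most abundant member in control. After quantile normalization its log2 of -0.45 became 0.27. NDUFA4, once counted with complex I and now placed in complex IV, stood at 754 FPKM in control against 632 in antibiotic (authors' q = 0.233). COX6A1 stood at 509 and 416 FPKM (authors' q = 0.156).

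Tissue isoforms of complex IV kept their order. COX6A2, the muscle isoform, stood at 4.22 FPKM in control against 4.05 in antibiotic (authors' q = 0.862), and COX6A1 was 121-fold above it in control and 103-fold above it in antibiotic. COX7A1, an isoform typical of heart and muscle, stood at 69.2 and 113 FPKM (authors' q = 0.129), below COX7A2 at 317 and 392 (authors' q = 0.211). COX8H, the heart isoform, stood at 1.12 and 2.49 FPKM (authors' q = 0.735), and its deposited locus holds 8 other rows. Beside these, 4 of 10 skeletal muscle markers had a row, with a summed 3.78 FPKM in control and 7.65 in antibiotic. Among them MYL1 stood at 0.0437 and 0.0537 FPKM and ACTA1 rose from 2.58 to 5.41 (authors' q = 0.00467).

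Most ATP synthase subunits did not pass. The catalytic F1 subunit genes ATP5A1 and ATP5B went from 278 to 355 FPKM and from 510.3 to 604 FPKM, respectively, without passing (authors' q = 0.0967 and 0.295). ATP5J, coupling factor 6 of the stalk, rose from 24.2 to 37.1 FPKM (1.53-fold, authors' q = 0.0149). ATP5F1, subunit b of the peripheral stalk, fell from 270.4 to 162 FPKM (1.67-fold, authors' q = 0.000891). The stalk thus held a rise and a fall, and the other 8 of 10 subunits did not pass. The share called was 20% against 41.1% of all tested features. The loci of ATP5J and ATP5F1 each hold other rows of the table. ATP5G1 and ATP5G3, which encode identical mature c subunits of the rotor, went from 169 to 186 FPKM and from 77.3 to 76.5 FPKM, respectively, without passing (authors' q = 0.563 and 0.951). ATP5S fell from 8.91 to 4.28 FPKM (2.08-fold, authors' q = 0.000336).

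Assembly factors named by the rule had falls and no rise. Of 25 members 9 fell (36.0%, against 22.2% of all tested features), and none rose (against 19.0%). The other 16 missed the threshold, and the median log2 of all 25 was -0.11. Subunits had 14 falls (24.6%) and 10 rises (17.5%) among 57 members, with a median log2 of -0.012. Of the assembly factors that did not pass 11 had a log2 above 0. The difference between the classes was not tested. Rows outside the rule did include rises, since SDHAF2 and 5 further assembly and maturation genes described below rose.

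COA5, a factor of complex IV assembly, had the largest fall of all members and went from 431 FPKM in control to 22.1 in antibiotic (19.5-fold, authors' q = 0.0153). Its authors' p of 0.00445 was larger than that of 17 members at the smallest p of the table, 5e-05, which include changes of 1.73-fold to 6.16-fold. With COA5 the summed FPKM of complex IV assembly factors was 746 in control and 315 in antibiotic, and without it the sums were 315 and 293. COA5 lies at chromosome 3, 58229533 to 58240691, in the deposited table.

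Of 5 factors that handle copper for complex IV, 2 fell and 3 did not pass, so 40% were called against 41.1% of all tested features. COX17, the chaperone that hands copper to the assembly line, fell from 114 to 49.6 FPKM (2.29-fold, authors' q = 0.000336), and COA6, which works with the SCO proteins, fell from 13.5 to 8.38 (authors' q = 0.0394). SCO1 and SCO2, which insert copper into the COX2 protein, went from 5.90 to 7.21 FPKM and from 8.81 to 11.2 FPKM, respectively, without passing (authors' q = 0.337 and 0.358). COX19 went from 9.35 to 31.9 FPKM without passing (3.41-fold, authors' q = 0.150). COX16, which helps COX2 join the complex, fell from 9.64 to 2.99 FPKM (3.23-fold, authors' q = 0.000625). COA3, a factor for making COX1, stood at 82.1 and 114 FPKM (authors' q = 0.299), and its deposited locus holds 3 other rows. COX10 and COX15, the enzymes that make heme A, went from 0.803 to 2.35 FPKM and from 4.41 to 6.39 FPKM, respectively, without passing (authors' q = 0.112 and 0.0906). The rows of SCO1, SCO2 and COX15 overlap other rows.

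Assembly factors of complexes I and III gave further falls. NDUFAF5, which hydroxylates NDUFS7, fell from 15.6 to 9.27 FPKM (1.68-fold, authors' q = 0.00371). UQCC2, needed for making cytochrome b, fell from 54.8 to 20.8 FPKM (2.63-fold, authors' q = 0.00185), and its deposited locus also holds ITPR3. UQCC3, which acts on cytochrome b as well, stood at 26.9 and 35.5 FPKM (authors' q = 0.418). NDUFAF1 and NDUFAF3, early factors of complex I, went from 11.7 to 15.5 FPKM and from 57.7 to 49.0 FPKM, respectively, without passing (authors' q = 0.154 and 0.319). NDUFAF4 stood at 9.20 and 6.28 FPKM (authors' q = 0.175). COX7A2L, which links complexes III and IV into supercomplexes and was grouped here with the assembly factors, stood at 55.0 and 40.8 FPKM (authors' q = 0.0762).

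**Figure D3:**
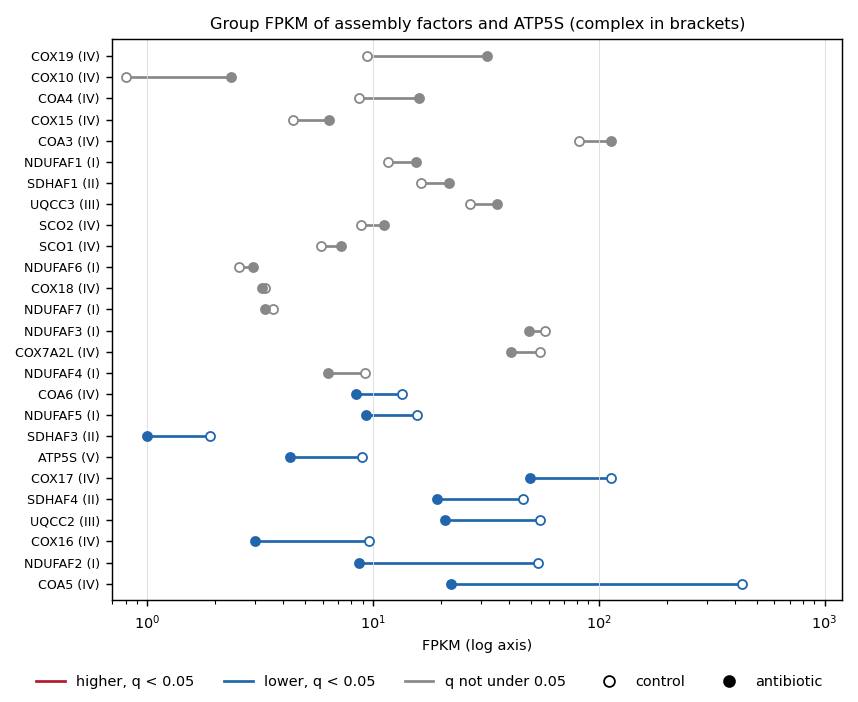
Open circles are control and filled circles antibiotic FPKM of the 25 assembly factors and ATP5S on a log axis, sorted by log2, with the complex in brackets. Blue lines mark the members that fell and grey lines those that did not pass, and no line is red. COA5 spans 431 to 22.1 FPKM and NDUFAF2 53.6 to 8.70, and COX19 at the top goes from 9.35 to 31.9 without passing.

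Other genes around the chain were read from lists chosen with earlier results of these data known. Of 28 tested assembly and maturation genes that the name rule does not take, 5 rose and 5 fell, so 35.7% were called against 41.1% of all tested features. The other 18 missed the threshold, and the median log2 was 0.019. The complex I factors ACAD9 and FOXRED1 rose from 6.39 and 5.28 FPKM to 11.1 and 9.65 (authors' q = 0.00138 and 0.00352). TMEM126B, which acts with ACAD9, fell from 23.1 to 15.0 FPKM (authors' q = 0.0331). NUBPL, which supplies iron-sulfur clusters to complex I, fell from 5.77 to 3.38 FPKM (authors' q = 0.00578), and TMEM126A and LYRM2 also fell. HIGD1A, a complex IV regulator, fell from 127 to 82.4 FPKM (authors' q = 0.000625). TACO1, a translational activator of the COX1 mRNA, rose from 2.43 to 4.24 FPKM (authors' q = 0.00250), and the sulfur donor NFS1 and the protease subunit AFG3L2 also rose. The inhibitor of ATP synthase, ATPIF1, stood at 226 FPKM in control against 249.9 in antibiotic (authors' q = 0.489), and ISCU, the iron-sulfur scaffold, at 184 and 181 (authors' q = 0.924).

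Genes of the citric acid cycle, which feeds electrons into the chain, were counted with pyruvate dehydrogenase. The count also took PC and the cytosolic MDH1, which are not enzymes of the cycle and which both rose. Of 20 tested genes 10 rose (50%, against 19.0% of all tested features) and 3 fell (15.0%, against 22.2%), so 65.0% were called against 41.1%. The other 7 missed the threshold, and the median log2 was 0.49. MDH2, malate dehydrogenase, rose from 103 to 187 FPKM (1.82-fold, authors' q = 0.000336). PC, pyruvate carboxylase, rose from 20.0 to 49.3 FPKM (2.46-fold, authors' q = 0.000336), and DLST, OGDH, MDH1, IDH3G, IDH2, FH and PDHA1 also rose. SUCLG2, a subunit of succinyl-CoA synthetase, fell from 61.0 to 20.8 FPKM (2.93-fold, authors' q = 0.000336). PDHX and DLD, parts of the pyruvate dehydrogenase complex, also fell, from 32.7 to 17.9 and from 32.2 to 22.4 FPKM (authors' q = 0.00114 and 0.0107). Of 14 tested genes for ubiquinone and other electron donors 2 rose, 3 fell and 9 did not pass, so 35.7% were called against 41.1%. ETFB, a subunit of the electron transfer flavoprotein, rose from 44.8 to 95.0 FPKM (authors' q = 0.0164), and its partner ETFA fell from 31.3 to 22.9 (authors' q = 0.0428). COQ10A also rose, and COQ3 and COQ10B also fell. COQ9, a lipid-binding protein of ubiquinone synthesis, stood at 35.7 and 39.0 FPKM (authors' q = 0.559).

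Regulators of respiratory genes were divided. Of 17 tested genes 6 rose (35.3%, against 19.0% of all tested features), 4 fell (23.5%, against 22.2%) and 7 did not pass. TFAM, which packages and transcribes mitochondrial DNA, fell from 2141 to 59.0 FPKM (36.3-fold, authors' q = 0.000625), and its deposited locus spans only 693 bases. The mitochondrial transcription factors TFB1M and TFB2M fell from 22.1 and 7.28 FPKM to 7.69 and 3.76 (authors' q = 0.0270 and 0.00699), and GABPB1, a partner of the factor GABPA, fell from 3.04 to 1.80 (authors' q = 0.0117). ESRRA, a nuclear receptor that acts on respiratory genes, rose from 2.90 to 8.98 FPKM (3.10-fold, authors' q = 0.00613). PPARGC1B, a coactivator of such receptors, rose from 0.805 to 1.53 FPKM (authors' q = 0.000625), and PPARD, PPARA, PPRC1 and POLG also rose. NRF1, a factor that binds many respiratory gene promoters, stood at 4.66 FPKM in control against 5.53 in antibiotic (authors' q = 0.590). HIF1A, the oxygen-sensing factor, stood at 55.3 and 45.3 FPKM (authors' q = 0.195). The rows of TFB1M, TFB2M, ESRRA and POLG overlap other rows of the table, as do those of ACAD9, NFS1, PC, MDH1, OGDH, IDH3G, PDHA1, PDHX and COQ9.

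Marker genes of several cell types differed between the groups beside these results, and their part in them was not tested. The table held hypothalamic peptides in both groups, among them AVP at 211 FPKM in control and 181 in antibiotic, which did not pass (authors' q = 0.461). PMCH, OXT, SST, HDC and FEZF1 from the same list fell. The summed FPKM of 15 matched markers of hypothalamic neurons was 1090.3 in control and 434 in antibiotic, with 5 falls and no rise among 12 tested. That of 8 neuron markers was 1239.8 and 1553, with 4 rises and 1 fall. Of 5 astrocyte markers 3 rose and 1 fell, with sums of 3866 and 7178 FPKM, and of 9 oligodendrocyte markers 2 rose and 2 fell, with sums of 10177 and 12307. The sums were 453 and 302 FPKM for 8 microglial markers (1 rise, 3 falls), 101 and 176 for 6 endothelial markers (3 rises, no fall), and 345 and 127 for 5 choroid plexus markers (4 falls, no rise). The 4 matched erythroid markers summed to 11080.5 FPKM in control and 1118 in antibiotic, and HBB and HBA both fell. Ependymal markers summed to 8.38 and 6.71 FPKM over 4 matched genes (1 rise and 1 fall among 3 tested). Pituitary markers summed to 5.60 and 6.09 FPKM over 7 matched genes. Of these only LHB and POMC, the latter also counted with the hypothalamic neurons, were tested, and neither was called. No matched marker was listed at 0 in both groups, while TMEM212, KISS1 and POU1F1 were listed at 0 in control alone.

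The scaling of the groups set the sign of small changes. The summed FPKM of the table off the mitochondrial chromosome was 959072 in control and 529953 in antibiotic, and the members made up 1.24% and 1.89% of it. Scaling to equal sums without mitochondrial rows moved the median log2 of all tested features by 0.86 and that of the members to 0.84, and upper quartile scaling moved the former by 0.13. The median of complex I minus that of all tested features was -0.16 as deposited, which scaling by 1 factor cannot change, and -0.085 after quantile normalization. The single factors all raised the antibiotic values, so the 10 members that rose could not change sign under them. These 10 also stayed above 0 with quantile normalization. Of the 24 that fell 17 stayed below 0 with equal sums, 23 with quantile normalization and all 24 with the other scalings. The members that fell and changed sign with equal sums were NDUFAF5, NDUFS4, NDUFV2, NDUFB5, COA6, COX7B and ATP5F1. Beyond scaling, 31 of the 34 calls were of rows that overlap no other row, 9 upwards and 22 downwards.

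**Figure D4:**
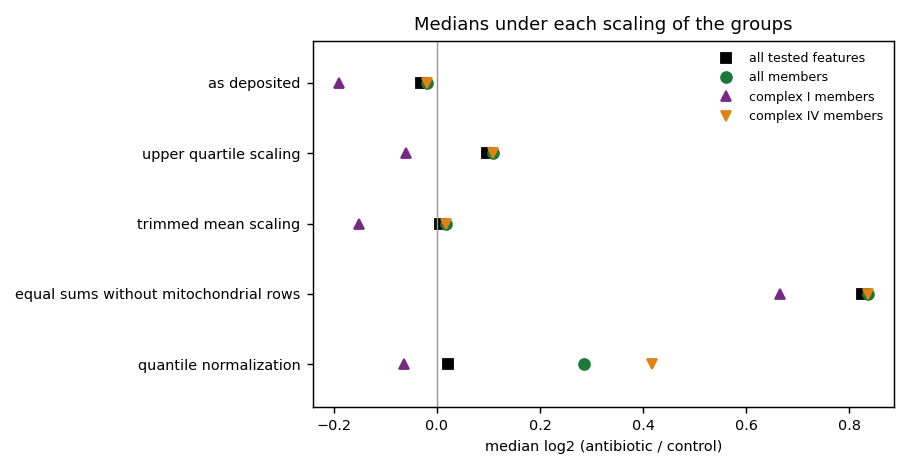
Median log2 of antibiotic over control under each scaling of the group columns, for all tested features (squares), all members (circles), complex I members (triangles) and complex IV members (inverted triangles). Complex I lies to the left of all tested features in each row, and equal sums without mitochondrial rows move every median to the right, that of all tested features to 0.82.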

How the data were processed

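RNA-seq libraries came from 4 control and 3 antibiotic hypothalami, made with a TruSeq RNA kit per the labels' protocols. Bowtie 0.12.2 and the builds susScr3 and mm8 appear in the submitters' processing notes with no role. The sources used here do not name the program that made the gene table.

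The authors deposited 1 FPKM value per gene and group, with the log2 of antibiotic over control, a test statistic (a score), a p-value and a q-value per gene, per the file headers. Only tested rows were used, and 6 blank rows were left out, leaving 16991 features of which 13352 were tested. The table holds no values per library, so depth, spread between animals, limma, leaving out a library and a replicate block could not be had. The sources used here do not say whether the authors' test took the samples as separate animals, so their p-values may cover part of the spread between animals. Overlapping loci were found from the deposited coordinates, and an overlap on either strand was counted, since strand use in counting is not stated.

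Medians, counts and scalings were computed with Python 3.11.15, pandas 2.3.3, numpy 2.4.6 and scipy 1.17.1, tested on simulated data, and figures were drawn with matplotlib 3.10.9. The alternatives were upper quartile, trimmed mean (30% of log ratios and 5% of mean levels), quantile and equal-sum scaling, pseudocounts of 0.1 and 1, at least 5 FPKM in a group, 1 row per symbol, no overlap, and stricter calls. Adding rows that the gene name table names was chosen after the data had been seen.

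The rule named every member with an authors' q under 0.05, in each complex and class the 3 members with the highest mean FPKM and the one with the largest change among those with at least 1 FPKM, isoform pairs, and the called and the 2 most abundant genes of the lists of other assembly genes and regulators. Other members were named for their role after their values were seen, as were the genes named from the citric acid cycle and electron donor lists. The members, roles and lists were chosen with earlier results of these data known. List symbols with no row were not analysed here, and the values of a few single genes are not reported here, although the counts and medians include them.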

Additional observations from a re-analysis of the deposited data

How the results depend on the processing

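No paired analysis was possible because the deposited table holds 1 value per group and no value per library, and no library was left out for the same reason. Of the comparisons of a median or a count with its alternative 69 stayed close to the deposited value and 33 moved. Among the comparisons for single named members the log2 changed sign in 22, of which 8 were of members that had passed and 14 of members that had not. A single factor on a group shifts every log2 alike by construction. For other moves the cause was not tested.

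With upper quartile scaling the median log2 was 0.11 over all members, 0.12 over subunits, 0.021 over assembly factors, and -0.061, -0.050, 0.32, 0.11 and 0.26 over complexes I to V in order. With equal sums without mitochondrial rows the same medians were 0.84, 0.84 and 0.75, and 0.67, 0.68, 1.05, 0.84 and 0.99. With quantile normalization the median was 0.29 over all members, 0.36 over subunits, and -0.064, 0.29, 0.50, 0.42 and 0.45 over complexes I to V.

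The median of assembly factors was -0.33 with at least 5 FPKM in a group and -0.43 without overlapping rows. The difference of the medians of subunits and assembly factors, 0.09 as deposited, was 0.45 with quantile normalization, 0.32 with at least 5 FPKM and 0.42 without overlaps. The median of complex II was 0.061 with at least 5 FPKM, that of complex III 0.090 with the rows named by the gene name table, and that of complex IV -0.21 without overlaps. Requiring a 2-fold change left 3 members higher and 13 lower.

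With equal sums 7 members that fell changed sign, with log2 values of 0.11 for NDUFAF5, 0.16 for NDUFS4, 0.11 for NDUFV2, 0.26 for NDUFB5, 0.17 for COA6, 0.41 for COX7B and 0.12 for ATP5F1. With quantile normalization COX7B changed sign, to 0.27. The depth of the libraries is unknown, so precision rests on the authors' q alone.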
